A study of Rattus norvegicus with 8 samples.

Results

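The genes described here encode the machinery that shortens the poly(A) tail of messenger RNA, removes its cap and degrades it from either end. They were chosen by symbol from the authors' comparison table of somatic RNA: all genes beginning with Cnot, Exosc, Dcp1, Dcp2, Edc, Xrn, Lsm and a digit, Upf, Smg and a digit, Ago1 to Ago4 or Tnrc6, and a short list of further decay genes. This gave 54 of the 17320 genes of that table, and 47 of them could be matched by symbol to the 17379 genes of the library files. The other 7 (Ago2, Ago4, Cnot2, Cnot6, Exosc8, Pan2 and Tnrc6a) have values only in the authors' deposited tables. The measured 47 comprised 10 deadenylase genes, 4 Tob/Btg genes, 6 decapping and 5′-3′ decay genes, 7 exosome genes, 10 genes of the Lsm ring family, Lsm12, 6 genes of nonsense-mediated decay and 3 Argonaute or Tnrc6 genes.

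RNA was sequenced from dorsal root ganglion sensory neurons of rats at embryonic day 15, grown for 7 days in microfluidic chambers that let axons extend into a compartment away from the cell bodies. The 4 groups were axonal RNA with shPum2, axonal RNA with shControl, somatic RNA with shPum2 and somatic RNA with shControl, with 2 libraries in each. Every culture was transduced on the day it was plated. The lentivirus carried shPum2, a short hairpin RNA that targets Pum2, or the control hairpin shControl. Pum2 is an RNA-binding protein of the Pumilio family. The labels give no rat strain, describe the somatic source as cell bodies with axons, and do not say whether the 2 libraries of a group came from separate cultures, so p-values measure the spread between libraries, which may be technical. Axonal libraries were made with an ultra-low input kit and somatic libraries with a standard kit, and these cannot be told apart from the compartments.

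Messenger RNA decay usually begins with removal of the poly(A) tail. The CCR4-NOT complex, built on the scaffold Cnot1, does most of this work, and PARN and the PAN2-PAN3 pair are further deadenylases. A deadenylated mRNA can then be bound by the Lsm1-7 ring, decapped by Dcp2 and degraded from its 5′ end by Xrn1, or it can be degraded from its 3′ end by the RNA exosome. The Lsm2 to Lsm7 proteins have a second home, since with Lsm8 in place of Lsm1 they form the nuclear ring on U6 small nuclear RNA. Pumilio proteins are known in other animals to recruit CCR4-NOT to the mRNAs they bind, and Argonaute proteins reach it through the Tnrc6 scaffolds.

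Library totals were 11641980 and 16131627 estimated counts for axonal shPum2, 11686689 and 13533408 for axonal shControl, 21254538 and 25821800 for somatic shPum2, and 16725902 and 23176692 for somatic shControl. Between 9542 and 10730 genes had a count in axonal libraries, against 14038 to 14263 in somatic libraries, and the 10 most abundant genes took 24.3% to 30.4% of axonal and 5.92% to 6.60% of somatic counts. In TPM, a length-scaled share of the transcripts in a library, 8 neuron markers summed to 4621 to 9379 in axonal and 21999 to 26247 in somatic libraries. Pum2 itself had 10.8 and 10.2 TPM in somatic shPum2 libraries, against 46.6 and 44.6 TPM in somatic shControl libraries, a log2 fold change of -2.13 (SE 0.07, adjusted p = 0.0247 by edgeR's quasi-likelihood test). In axonal RNA Pum2 had 0.197 and 0.808 TPM with shPum2, against 0.390 and 0.0578 TPM with shControl, so the groups overlapped and the knockdown could not be checked there.

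The Lsm genes carry the clearest compartment difference below. In 4 of them (Lsm3, Lsm5, Lsm6 and Lsm7) every axonal library stood above every somatic library in TPM, as in 4.17% of all genes. The 110 bases before the annotated start of each are shown 5′ to 3′ to give their promoter context, from RefSeq, build GRCr8, with matches to GGGCGG (GC box) or CCAAT on either strand in capitals. Lsm3 lies at chr4:125578075-125578184 (plus strand), Lsm5 at chr4:87284477-87284586 (minus strand), Lsm6 at chr19:46002482-46002591 (plus strand) and Lsm7 at chr7:9507263-9507372 (plus strand).
Lsm3: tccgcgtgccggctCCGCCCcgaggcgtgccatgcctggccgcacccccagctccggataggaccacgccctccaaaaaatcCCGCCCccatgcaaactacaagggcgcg
Lsm5: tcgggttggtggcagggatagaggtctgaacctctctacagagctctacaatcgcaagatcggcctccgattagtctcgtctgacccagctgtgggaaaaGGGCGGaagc
Lsm6: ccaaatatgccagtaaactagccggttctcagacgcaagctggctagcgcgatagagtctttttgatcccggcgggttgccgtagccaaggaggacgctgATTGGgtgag
Lsm7: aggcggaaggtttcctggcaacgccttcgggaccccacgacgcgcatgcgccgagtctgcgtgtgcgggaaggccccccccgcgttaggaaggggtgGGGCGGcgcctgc
Over the 250 bases before the start, GGGCGG was present in 7 of the 11 matched promoters of members higher in axons (the call is given below), in 6 of 9 of members lower in axons, in 14 of 18 of the others and in 30.5% of 33469 rat promoters. CCAAT was present in 5 of 11, 3 of 9 and 4 of 18, and in 34.0% of all promoters. These motif matches describe the letters in the window, and no binding was measured.

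The summed share of decay mRNAs overlapped between the compartments, but its makeup differed. The 47 genes summed to 1363 and 1678 TPM in axonal shPum2, 1331 and 1847 TPM in axonal shControl, 1796 and 1693 TPM in somatic shPum2, and 1711 and 1652 TPM in somatic shControl libraries. The mean was 1555 ± 249.95 TPM in axonal and 1713 ± 60.7 TPM in somatic libraries (SD, n = 4 each), a ratio of 0.908. Of this sum, the 10 Lsm ring genes held 81.9% ± 5.09 in axonal and 38.1% ± 1.495 in somatic libraries. Every other role held a smaller share on average in axons: deadenylases 2.47% ± 1.91 against 18.0% ± 0.462, decapping and 5′-3′ decay 1.83% ± 0.806 against 10.1% ± 0.659, exosome 5.20% ± 1.15 against 12.2% ± 0.239, and nonsense-mediated decay 1.98% ± 0.988 against 8.96% ± 0.272 (SD, n = 4 each). The axonal and somatic libraries did not overlap in any of these 5 shares. The shares are parts of 1 sum, so a larger Lsm share lowers the others, and they are not separate results. Of all genes tested, 79.5% did not overlap between the compartments in TPM. The Tob/Btg, Argonaute/Tnrc6 and Lsm12 shares were small in both compartments, with means of 3.32%, 1.06% and 2.19% in axonal and 5.64%, 1.32% and 5.75% in somatic libraries.

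**Figure D1:**
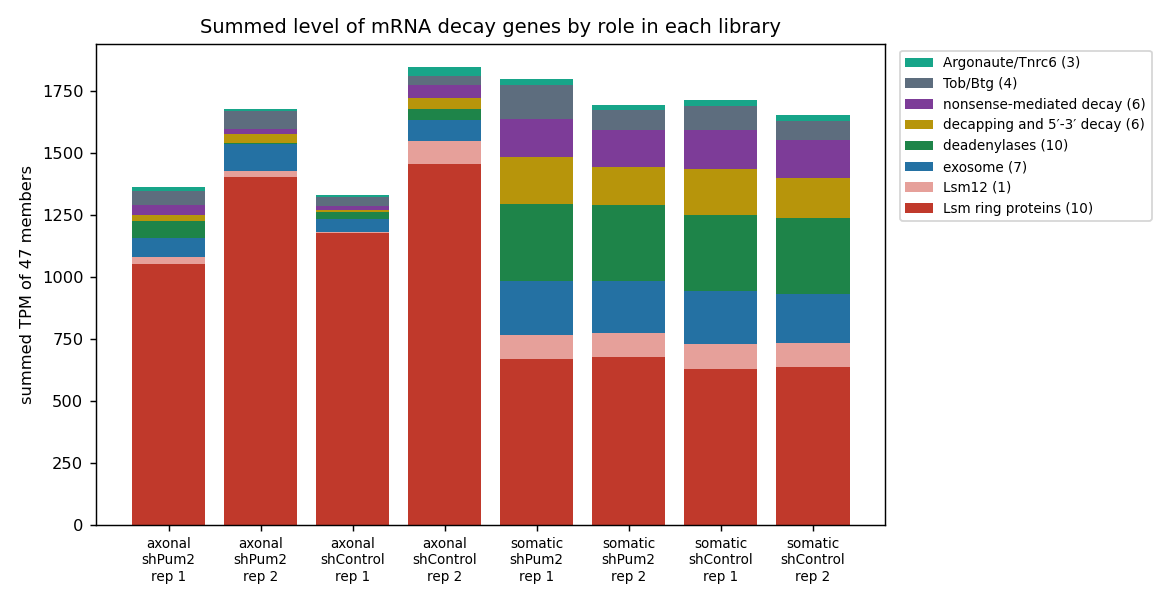
Summed TPM of the 47 measured decay genes in each of the 8 libraries (y axis), stacked by role, with the number of genes per role in brackets. The Lsm ring segment makes up 77.2% to 88.4% of each axonal bar and 36.7% to 40.1% of each somatic bar, while the bars have similar heights.

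Axonal and somatic libraries were compared gene by gene with edgeR's quasi-likelihood test on summed counts scaled by TMM, a factor that takes most genes to be unchanged. Of 12337 genes tested, 1692 (13.7%) were called higher and 3272 (26.5%) lower in axons at an adjusted p below 0.05, 40.2% in all. Of the 47 decay genes 23 were called, 12 higher and 11 lower. Their median log2 fold change was 0.22, and that of all genes tested was -0.998, so a value near 0 lies above the typical gene. The median of all genes was -2.47 when counts were scaled by library totals alone and -2.84 on log2(TPM + 0.5), and the direction of a gene can depend on this choice. Total counts gave 22 members called, 6 higher (6.75% of all genes) and 16 lower (43.1%, with 49.8% in all), and limma on log2(TPM + 0.5) gave 35, of which 4 were higher (4.4%) and 31 lower (75.4%, with 79.8% in all). Within a hairpin, 10 members were called in shPum2 libraries (24.7% of all genes) and 17 in shControl libraries (27.9%). Of the 47, 12 uncalled genes changed sign between TMM and total counts. Ago1, Exosc5, Lsm1, Lsm2, Tob2 and Upf3b, all called higher under TMM, had negative values on log2(TPM + 0.5).

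The Lsm ring genes had the highest median log2 fold change of the roles (3.41). Of the 10, 8 were called higher in axons under TMM scaling, against 13.7% of all genes. Of these, Lsm1 and Lsm2 had negative values on the TPM scale. Lsm7 had 524 and 704 TPM in axonal shPum2 and 596 and 749 TPM in axonal shControl libraries, against 215 and 228 TPM in somatic shPum2 and 206 and 215 TPM in somatic shControl libraries. Its log2 fold change was 4.36 (SE 0.40, adjusted p = 0.000888, edgeR), the largest rise among the 47. Lsm7 was also the most abundant decay gene in both compartments, averaging 643 ± 102 TPM in axonal and 216 ± 9.27 TPM in somatic libraries (SD, n = 4 each).

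Lsm5 had 172 and 240.3 TPM in axonal shPum2 and 199 and 199 TPM in axonal shControl libraries, against 76.1 and 79.0 TPM in somatic shPum2 and 61.4 and 62.0 TPM in somatic shControl libraries. Lsm3 had 87.4 and 77.3 TPM in axonal shPum2 and 71.5 and 88.6 TPM in axonal shControl libraries, against 51.0 and 40.9 TPM in somatic shPum2 and 36.5 and 40.1 TPM in somatic shControl libraries. Lsm6 had 46.2 and 68.6 TPM in axonal shPum2 and 65.2 and 35.3 TPM in axonal shControl libraries, against 23.0 and 20.1 TPM in somatic shPum2 and 21.1 and 20.5 TPM in somatic shControl libraries. For these 3 genes, as for Lsm7, the lowest axonal library stood above the highest somatic library even in TPM, where 4.17% of all genes did so. The reverse, every axonal library below every somatic one in TPM, held for 34 of the 47 and for 75.3% of all genes, so that 38 of the 47 did not overlap either way, against 79.5% of all genes. Their log2 fold changes were 4.35 (SE 0.46, adjusted p = 0.00139), 3.70 (SE 0.44, adjusted p = 0.00197) and 4.16 (SE 0.50, adjusted p = 0.00201) by edgeR. These 4 genes and Tob1 were the decay genes called under all 19 settings run for this comparison. The settings reuse the same libraries, and the share of all genes called under all 19 was not counted.

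The remaining ring members were less uniform. Lsm4 was called higher (log2 fold change 3.13, SE 0.41, adjusted p = 0.00278, edgeR), but its TPM of 164, 222, 134 and 236 in axonal libraries overlapped the 148, 158, 139 and 147 of somatic libraries. Lsm10, a subunit of the U7 ring that processes histone mRNA, had 14.6 and 58.9 TPM in axonal shPum2 and 26.7 and 68.5 TPM in axonal shControl libraries, against 18.5 to 21.9 TPM in somatic libraries (log2 fold change 3.90, SE 0.80, adjusted p = 0.00906, edgeR). Its U7 partner Lsm11 moved the other way, with 2.60 and 0.0412 TPM in axonal shPum2 and 0 and 0.0556 TPM in axonal shControl libraries, against 26.2 to 33.8 TPM in somatic libraries (log2 fold change -4.70, SE 1.33, adjusted p = 0.0302, edgeR). It was -2.13, not called, in shPum2 libraries alone and -7.28 in shControl libraries alone.

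Lsm1, which marks the cytoplasmic decay ring, was called higher under TMM at a log2 fold change of 2.14 (SE 0.44, adjusted p = 0.00939, edgeR) and was -0.58 on log2(TPM + 0.5). It had 15.4 and 10.1 TPM in axonal shPum2 and 48.6 and 41.1 TPM in axonal shControl libraries, against 33.4 and 37.0 TPM in somatic shPum2 and 33.0 and 39.2 TPM in somatic shControl libraries. Lsm8, which marks the nuclear U6 ring, was not called at 0.71 (SE 0.67, adjusted p = 0.435, edgeR) and had 4.09 to 12.2 TPM in axonal against 26.5 to 34.5 TPM in somatic libraries. The shared subunit Lsm2 was called higher at 1.86 (SE 0.53, adjusted p = 0.0319, edgeR) but was called lower on the TPM scale at -0.82, with 15.7 to 25.9 TPM in axonal and 36.2 to 42.4 TPM in somatic libraries. Lsm7 stood above Lsm1, Lsm2 and Lsm8 in every library of both compartments. Lsm12, a relative that carries an Lsm domain, was not called at 1.21 (SE 0.77, adjusted p = 0.252, edgeR), with 4.95 to 92.6 TPM in axonal and 95.1 to 101 TPM in somatic libraries.

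**Figure D2:**
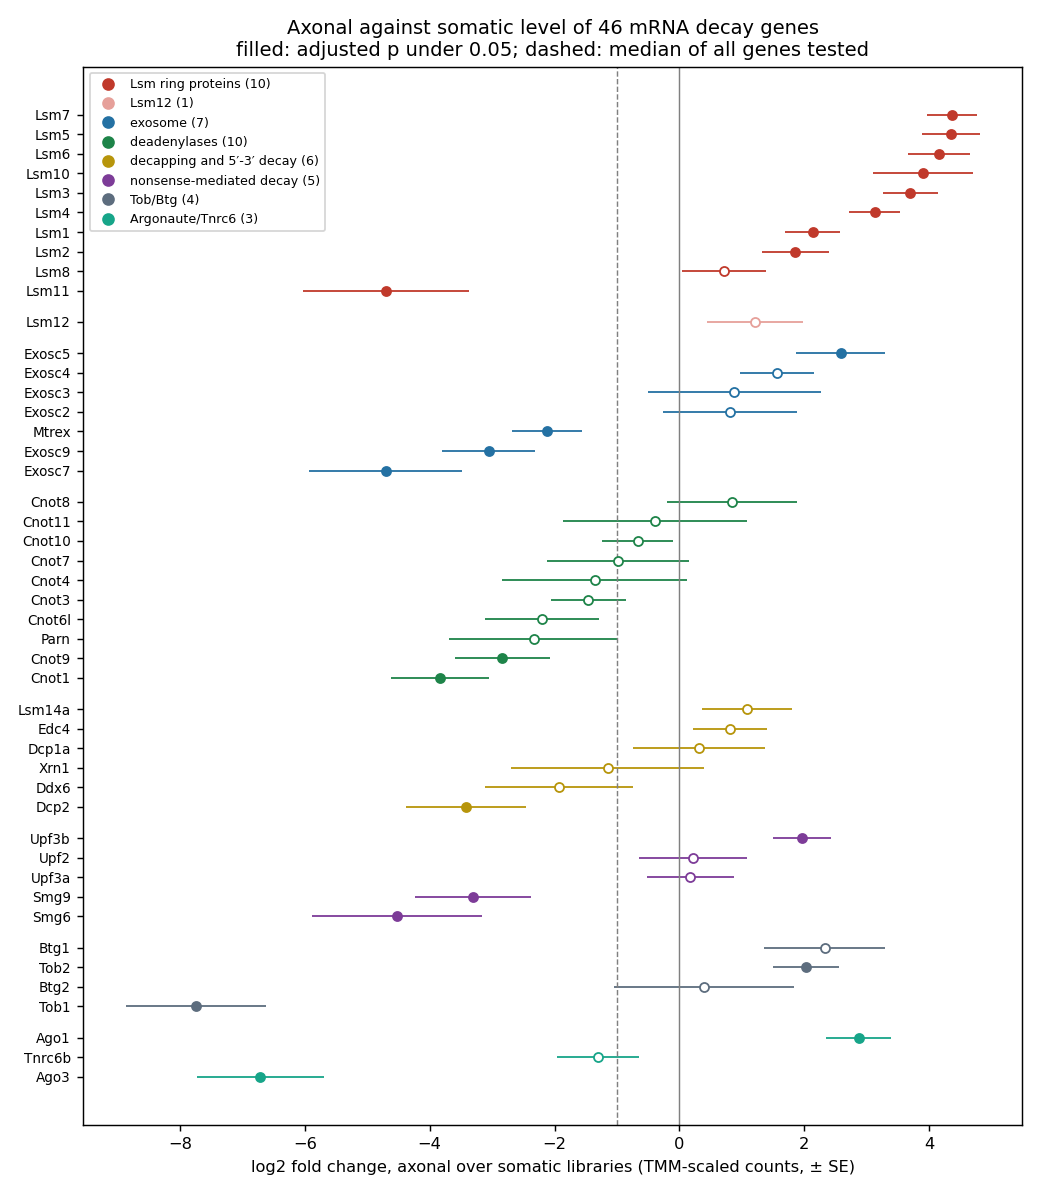
The log2 fold change of axonal over somatic libraries (x axis, TMM-scaled counts, bars are ± SE) for 46 decay genes, grouped by role, with filled points for an adjusted p below 0.05. The 8 called Lsm ring genes on the right lie between 1.86 and 4.36, to the right of the dashed median of all genes at -0.998, while 9 of 10 deadenylase genes lie below 0.

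Of the 10 deadenylase genes 2 were called lower and none higher in axons, beside 26.5% and 13.7% of all genes. Their median log2 fold change was -1.41, against -0.998 for all genes tested. Cnot1, the scaffold of CCR4-NOT, had 0.173 and 0.0278 TPM in axonal shPum2 and 2.53 and 0.423 TPM in axonal shControl libraries, against 36.7 and 31.5 TPM in somatic shPum2 and 33.9 and 33.7 TPM in somatic shControl libraries. Its log2 fold change was -3.83 (SE 0.79, adjusted p = 0.00903, edgeR), with -5.97 in shPum2 libraries alone and -1.69, not called, in shControl libraries alone. Cnot9, a subunit that contacts recruiting proteins, was called lower at -2.84 (SE 0.75, adjusted p = 0.0245, edgeR), with 0.0563 to 7.87 TPM in axonal and 21.3 to 23.0 TPM in somatic libraries. It was -0.019, not called, in shPum2 libraries alone and -5.65 in shControl libraries alone. The catalytic subunits Cnot7 and Cnot8 were not called, at -0.98 (SE 1.14) and 0.84 (SE 1.04), and their axonal libraries lay far apart. Cnot8 had 21.8 and 0.397 TPM in axons with shPum2 and 4.08 and 36.9 TPM with shControl. The subunits Cnot3, Cnot4, Cnot6l, Cnot10 and Cnot11 were not called, at -2.20 to -0.39. The deadenylase Parn was not called either at -2.34 (SE 1.36, adjusted p = 0.216, edgeR), with 0.0245 to 5.05 TPM in axonal and 35.4 to 38.4 TPM in somatic libraries.

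The Tob and Btg proteins, which tether deadenylases to mRNAs, split by member. Tob1 had no count in either axonal shPum2 library and 2 and 6 counts in the axonal shControl libraries, against 340 to 581 counts in the somatic libraries. Its log2 fold change of -7.74 (SE 1.12, adjusted p = 0.00453, edgeR) was the largest fall of the 47. Its paralogue Tob2 was called higher under TMM at 2.03 (SE 0.53, adjusted p = 0.0226, edgeR) and was -0.72 on the TPM scale, with 10.3 and 5.64 TPM in axonal shPum2 and 7.44 and 20.2 TPM in axonal shControl libraries, against 14.7 to 19.0 TPM in somatic libraries. Btg1 and Btg2 were not called, at 2.33 (SE 0.97) and 0.39 (SE 1.44). Btg1 had 1.13 to 67.2 TPM in axonal and 37.2 to 48.6 TPM in somatic libraries.

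Of the decapping and 5′-3′ decay genes, Dcp2 alone of 6 was called, lower at -3.41 (SE 0.96, adjusted p = 0.0297, edgeR), beside 26.5% of all genes called lower. This catalytic decapping subunit had 0.760 and 1.38 TPM in axonal shPum2 and 0 and 0.0389 TPM in axonal shControl libraries, against 9.08 to 14.9 TPM in somatic libraries. Its difference was -0.59, not called, in shPum2 libraries alone and -6.24 in shControl libraries alone. Its partners Dcp1a, Edc4 and Lsm14a had values of 0.32 to 1.08 under TMM and below 0 with total counts, and the exonuclease Xrn1 was -1.15 (SE 1.55), none of them called. Ddx6, the helicase of processing bodies, was among the 5 most abundant decay genes of the soma at 61.3 ± 5.59 TPM (SD, n = 4). In axons Ddx6 had 1.12 and 2.37 TPM with shPum2 and 0.0479 and 6.18 TPM with shControl, and its difference was not called (-1.92, SE 1.19, adjusted p = 0.241, edgeR).

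Of the 7 exosome genes 1 was called higher and 3 lower in axons, beside 13.7% and 26.5% of all genes. Exosc5, a subunit of the ring, was called higher under TMM at 2.58 (SE 0.71, adjusted p = 0.0283, edgeR) and was -0.48 on the TPM scale. It had 18.7 and 83.4 TPM in axonal shPum2 and 19.1 and 20.2 TPM in axonal shControl libraries, against 36.7 to 40.8 TPM in somatic libraries, so 1 axonal library stood above and the others below. Exosc2, Exosc3 and Exosc4 were not called, at 0.81 to 1.56. The ring subunits Exosc7 (-4.70, SE 1.22, adjusted p = 0.0287) and Exosc9 (-3.06, SE 0.75, adjusted p = 0.018) and the nuclear helicase Mtrex (-2.12, SE 0.57, adjusted p = 0.0249) were called lower by edgeR. These 3 genes had 19.2 to 39.4 TPM across the somatic libraries. Their axonal counts by hairpin are given with the hairpin comparison, where none passed the adjusted threshold by edgeR, and the compartment difference of each turned sign with the libraries used: Mtrex was 1.48 in shControl libraries alone, and Exosc7 and Exosc9 were 0.81 and 0.33 in shPum2 libraries alone.

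In nonsense-mediated decay 1 of 6 genes was called higher and 2 lower, beside 13.7% and 26.5% of all genes. Upf3b, which links the exon junction complex to the decay factors, was called higher at 1.96 (SE 0.46, adjusted p = 0.0157, edgeR) and was -0.81 on the TPM scale, with 8.73 to 31.8 TPM in axonal and 25.7 to 29.4 TPM in somatic libraries. Smg6, the endonuclease of the pathway, was called lower at -4.52 (SE 1.36, adjusted p = 0.0372, edgeR), with 28 and 0 counts in axonal shPum2 and 4 and 3 counts in axonal shControl libraries, against 676 to 827 counts in somatic libraries. Smg9 was called lower at -3.31 (SE 0.93, adjusted p = 0.0301, edgeR) but was 0.39 in shPum2 libraries alone. Upf2 and Upf3a were not called, at 0.22 and 0.17 (SE 0.86 and 0.69).

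Of the silencing genes, Ago1 was called higher under TMM at 2.87 (SE 0.52, adjusted p = 0.00574, edgeR) and was -0.04 on the TPM scale. It had 15.03 and 7.49 TPM in axonal shPum2 and 7.09 and 37.6 TPM in axonal shControl libraries, against 12.7 to 14.2 TPM in somatic libraries. Ago3 had 1 count in all 4 axonal libraries together, against 65 to 81 counts in each somatic library. The somatic share of counts was 182 times the axonal share (95% counting interval 32.4 to 7219), and the difference was called by edgeR at an adjusted p = 0.0048. Tnrc6b, the scaffold that Argonautes bind, was not called at -1.31 (SE 0.66, adjusted p = 0.163, edgeR).

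Transcript length went with this difference across genes, and the cell type lists differed in direction, as given below. Members called higher had a median length of 981 bases (488 to 7378), members called lower 2131 bases (1042 to 7714) and the rest 2566.5 bases. Across genes, which are not independent replicates, Spearman's rho between length and the axonal over somatic log2 fold change was -0.46 over the 47 genes, -0.23 over the 37 outside the Lsm ring and -0.36 over all 12337. Of genes shorter than 1000 bases, 51.3% were called higher in axons, and 6 of 8 such members were. The part of length and kit in the Lsm result was not tested.

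**Figure D3:**
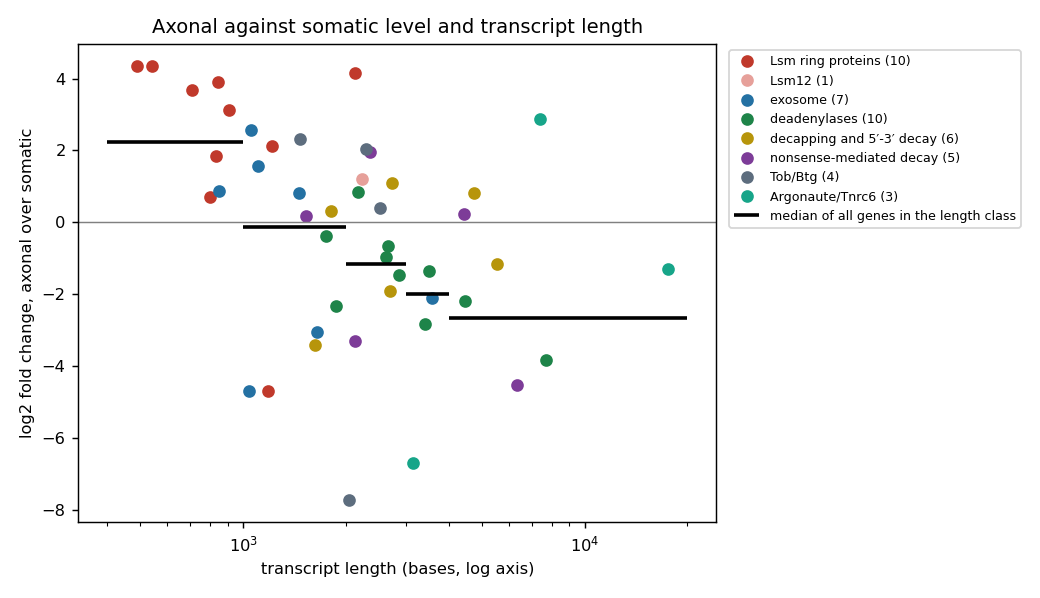
Transcript length in bases (x axis, log scale) against the log2 fold change of axonal over somatic libraries (y axis) for 46 decay genes, coloured by role; black bars are the medians of all tested genes in a length class. Below 1000 bases the median of all genes is 2.25, and 6 of 8 members there were called higher.

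A list of 8 macrophage and blood markers, all detected, summed to 2569 and 129 TPM in axonal shPum2 and 1113 and 441 TPM in axonal shControl, against 311 and 67.0 TPM in somatic shPum2 and 143 and 80.5 TPM in somatic shControl libraries. Of the 8, 5 were called higher in axons, against 13.7% of all genes. Of these markers, Ptprc was at 0 in axonal shPum2 replicate 2 and the others were above 0 in every library. The axonal library with the lowest sum, shPum2 replicate 2, had 704 TPM of Lsm7, against 524 TPM in the library with the highest sum, and the part of these cells in the result was not tested. Of 8 fibroblast markers, all with a log2 fold change below 0, 2 were called lower and none higher in axons. Of 6 Schwann and satellite cell markers, 2 were called higher and 1 lower, and none of 4 cycling markers was called. Of 8 neuron markers, 1 was called higher and 3 lower. Of all genes, 13.7% were called higher and 26.5% lower. RNA of fewer cells of a type and less RNA per cell cannot be told apart in these bulk samples.

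Within each compartment the hairpins were compared to ask whether decay genes responded to loss of Pum2. In somatic RNA none of the 47 genes did at an adjusted p below 0.05 by edgeR, where 1 of 12346 genes (0.0081%, Pum2 itself) was called. The unadjusted p was below 0.05 for 0 members and 74 genes (0.599%), and DESeq2 called 2 genes (0.0162%) and no member. The log2 fold changes of the 47 lay between -0.19 and 0.64 with a median of 0.01, equal to that of all genes, and 42 of 47 lay within 0.2 of 0. The median SE was 0.12.

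The somatic members with the smallest p were Lsm5, Edc4 and Btg1. Lsm5, whose values are given above, was higher in both shPum2 libraries (log2 fold change 0.31, SE 0.14, unadjusted p = 0.0829, adjusted p = 0.9997 by edgeR). Edc4, a decapping scaffold, had 40.3 and 36.4 TPM in somatic shPum2 and 43.5 and 41.7 TPM in somatic shControl libraries (-0.16, SE 0.07). Btg1 had 48.6 and 40.7 TPM in somatic shPum2 and 37.2 and 39.8 TPM in somatic shControl libraries (0.20, SE 0.12). Others with small p were Lsm3 at 0.24, Lsm11 at -0.19, Upf2 at -0.17, Exosc4 at 0.16, Tob1 at 0.28 and Exosc2 at 0.11, each within 1.5 times its SE of 0. Tob1, with 24.4 and 15.5 TPM in somatic shPum2 and 18.2 and 14.5 TPM in somatic shControl libraries, was -0.03 without shPum2 replicate 1.

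Among these, Upf2 had 9.29 and 7.58 TPM in somatic shPum2 and 9.82 and 9.06 TPM in somatic shControl libraries. Exosc4 had 37.1 and 33.5 TPM in somatic shPum2 and 33.5 and 29.5 TPM in somatic shControl libraries. Exosc2 had 31.7 and 29.8 TPM in somatic shPum2 and 28.8 and 27.9 TPM in somatic shControl libraries. The hairpin groups did not overlap in CPM, counts scaled to the library total, for 14 of the 47, against 24.5% of all genes.

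The widest somatic difference was that of Btg2, an immediate early antiproliferative gene, and Btg2 was highest in replicate 1 of either hairpin. Btg2 had 42.2 and 9.27 TPM in somatic shPum2 and 23.3 and 9.27 TPM in somatic shControl libraries, a log2 fold change of 0.64 with an SE larger than itself. A list of 8 fibroblast markers summed to 2775 and 528 TPM in somatic shPum2 and 1088 and 547 TPM in somatic shControl libraries, in the same order as Btg2. Macrophage and blood markers had this order too, at 311 and 67.0 TPM with shPum2 and 143 and 80.5 TPM with shControl. So did 4 cycling markers, at 45.9 and 8.04 TPM with shPum2 and 18.7 and 9.04 TPM with shControl. Schwann and satellite cell markers did not have it. The part of these cells in the Btg2 values was not tested.

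In axonal RNA edgeR called 0 of 8517 genes (0.0%) and 0 of the 43 members that passed its expression filter, with adjusted p = 0.9998 for every member. Ago3, Lsm11, Smg6 and Tob1 did not pass the filter. Without adjustment, 257 genes (3.02%) and 5 members had a p below 0.05, namely Mtrex, Exosc7, Smg9, Exosc9 and Dcp2. Replicates lay far apart in these libraries, with 17 of 47 members differing by more than 2 log2 units between the axonal shPum2 libraries and 18 of 47 between the axonal shControl libraries, against 1 and 0 in the somatic groups. The biological coefficient of variation that edgeR estimated was 125% for the axonal fit and 23.5% for the somatic fit.

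**Figure D4:**
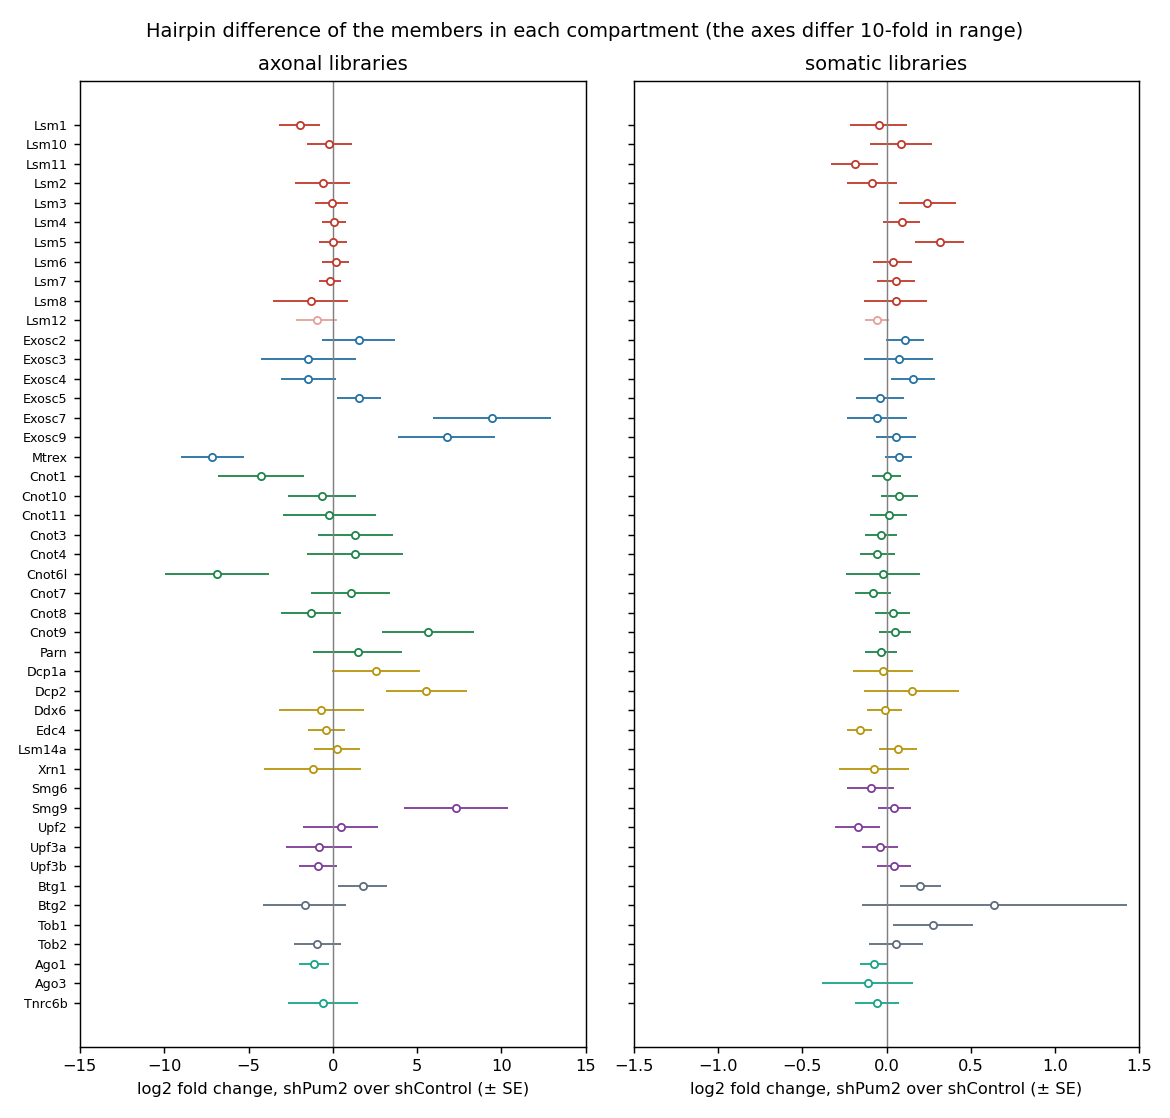
The log2 fold change of shPum2 over shControl with its SE (x axis) for 46 decay genes in axonal (left) and somatic (right) libraries. The axis ranges differ. Ago3, Lsm11, Smg6 and Tob1 did not pass the axonal expression filter and have no point on the left. Axonal values run from -7.15 to 9.45 with wide errors, and somatic values from -0.19 to 0.64.

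Among the exosome genes, Mtrex, Exosc7 and Exosc9 had the smallest unadjusted p in axons. Mtrex, the helicase that feeds RNA to the nuclear exosome, had 7 and 5 counts in axonal shPum2 libraries, against 283 and 1279 counts in axonal shControl libraries. The groups were far apart, with a log2 fold change of -7.15 (SE 1.87, unadjusted p = 0.00471, edgeR). Exosc7 had 161 and 30 counts in axonal shPum2 libraries, against 0 and 0 counts in axonal shControl libraries, at least 57.8-fold higher against a floor of 3 counts over the group (unadjusted p = 0.0296, edgeR). Exosc9 had 334 and 91 counts in axonal shPum2 libraries, against 2 and 1 counts in axonal shControl libraries, a 129-fold ratio of shares of counts (95% counting interval 43.7 to 626, unadjusted p = 0.0455, edgeR). The exosome subunits Exosc2 to Exosc5 had log2 fold changes of -1.46 to 1.53 and SEs of 1.30 to 2.81, none with an unadjusted p below 0.05 by edgeR. In TPM the axonal hairpin groups overlapped for Exosc3 and Exosc5 and did not for Exosc2 and Exosc4. In CPM, 27.8% of all genes tested did not overlap between these groups, and the share in TPM was not counted. The counting intervals cover counting error only.

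The other roles held further members of this kind, each low in 1 of the 2 hairpin groups. The expression filter needs 2 libraries above its limit. These members, like Mtrex, Exosc7 and Exosc9, therefore entered the test through the group where they were high. Members low in both groups, such as Ago3 and Tob1, did not pass it. Smg9, a regulator of the Smg1 kinase, had 310 and 135 counts in axonal shPum2 libraries, against 2 and 0 counts in axonal shControl libraries, a ratio of 202 (95% counting interval 55.6 to 1674). Dcp2 had 16 and 48 counts in axonal shPum2 libraries, against 0 and 1 counts in axonal shControl libraries, a ratio of 58.1 (95% counting interval 10.1 to 2331). The fitted log2 fold changes were 7.31 (SE 3.10, unadjusted p = 0.045) and 5.54 (SE 2.39, unadjusted p = 0.0475) by edgeR, and they depend on its prior count. In CCR4-NOT, the catalytic subunit Cnot6l had 2 and 0 counts in axonal shPum2 libraries, against 103 and 118 counts in axonal shControl libraries, a share 122 times higher in shControl (95% counting interval 33.3 to 1011). Cnot9 lay the other way, with 370 and 61 counts in axonal shPum2 libraries, against 3 and 4 counts in axonal shControl libraries. Cnot1 had 19 and 5 counts in axonal shPum2 libraries, against 314 and 56 counts in axonal shControl libraries. The unadjusted p of each missed 0.05 by edgeR (0.0548 for Cnot6l, 0.0711 for Cnot9 and 0.132 for Cnot1).

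Lsm1 was the abundant member nearest to a hairpin difference in axons, with 234 and 253 counts in shPum2, against 847 and 765 counts in shControl (log2 fold change -1.98, SE 1.20, unadjusted p = 0.138, edgeR). Its ring partners Lsm3 to Lsm7 lay between -0.18 and 0.17, with both hairpins at similar levels. Lsm8 and Lsm2 were lower in both axonal shPum2 libraries, as Lsm1 was. Lsm8 had 4.09 and 5.33 TPM with shPum2, against 12.2 and 10.7 TPM with shControl. Lsm2 had 22.2 and 15.7 TPM with shPum2, against 23.1 and 25.9 TPM with shControl. Neither had an unadjusted p below 0.05 by edgeR. Over all members tested, 16 of 43 did not overlap between hairpin groups in CPM, against 27.8% of all genes.

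**Figure D5:**
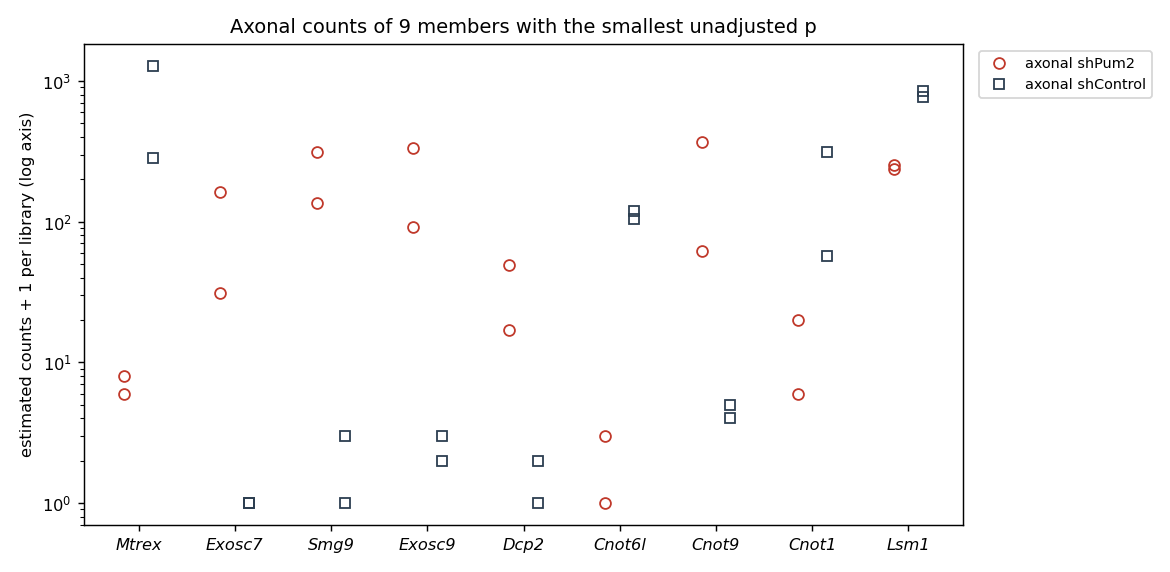
Estimated counts plus 1 (y axis, log scale) in each axonal shPum2 and axonal shControl library for 9 decay genes with the smallest unadjusted p. The groups are separated for all 9, and Lsm1 is the only one whose lower group exceeds 19 counts in a library.

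Other fits placed some of these genes past the threshold. DESeq2 on the same counts called 157 genes (1.84%) and, of the members, Mtrex (adjusted p = 8.02e-05) and Smg9 (adjusted p = 0.0486). The authors' deposited axonal table has 357 of 8858 genes (4.03%) with an adjusted p below 0.05, 1.93% higher and 2.1% lower with shPum2, among them Mtrex at a log2 fold change of -6.54 (adjusted p = 0.000784), Smg9 at 6.13 (adjusted p = 0.0149), Exosc9 at 5.74 (adjusted p = 0.0186) and Cnot6l at -5.78 (adjusted p = 0.0351). Exosc7 stands just outside at 6.35 (adjusted p = 0.0523) in the authors' deposited table. The 7 members without matched transcripts had log2 values between -0.09 and 0.06 in the authors' deposited somatic table, each with adjusted p = 0.9999, where 0.0134% of genes passed. In the authors' deposited axonal table their largest log2 values were those of Pan2 at 5.36 (adjusted p = 0.0959) and Ago4 at 4.21 (no adjusted p), and none of the 7 passed 0.05.

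Whether the hairpin difference itself differed between axons and soma was tested in a fit of all 8 libraries with 1 spread per gene for both compartments. EdgeR called 0 of 12337 genes (0.0%) and 0 of 47 members. Without adjustment, 964 genes (7.81%) and 9 members had a p below 0.05. Mtrex came nearest, with a difference of -7.20 log2 units (SE 1.20, unadjusted p = 0.000666, adjusted p = 0.329), followed by Exosc9 at 6.78 (adjusted p = 0.332), Exosc7 at 11.04 (adjusted p = 0.343), Smg9 at 7.40 (adjusted p = 0.367), Cnot9 at 5.63 (adjusted p = 0.41) and Cnot6l at -6.94 (adjusted p = 0.421) by edgeR. The others were Dcp2, Tob1 and Cnot1, each with an adjusted p = 0.572. DESeq2 called 606 genes (4.91%) and 7 members, namely Cnot1, Cnot6l, Cnot9, Exosc7, Exosc9, Mtrex and Smg9. Without axonal shControl replicate 1, edgeR called 713 genes (5.62%) and 4 members, but axonal shControl was then 1 library, assumed to vary like the other groups. Of the 4, Mtrex and Smg9 are described above, and Dcp1a and Exosc2 had 0.0346 and 0.131 TPM in that library, against 1.47 and 8.16 TPM in the library left out.

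Genes that work beside these members were followed as a list of 68 pathway partners, of which 58 were in the files. In the compartment comparison 57 were tested and 19 were called by edgeR, 5 higher and 14 lower in axons, beside 40.2% of all genes called, 13.7% higher and 26.5% lower. Their median log2 fold change was -0.34, against -0.998 for all genes tested. Among 13 exosome partners 1 was called higher and 4 lower, including the noncanonical poly(A) polymerases Tent4a (-6.85, adjusted p = 0.00197) and Tent4b (-5.71, adjusted p = 0.00554) that tag nuclear RNA for the exosome. Tent4a had 0.0156 to 0.0565 TPM in axonal and 25.7 to 28.2 TPM in somatic libraries. Among 10 genes of the exon junction complex and translation termination, Rbm8a (3.15, adjusted p = 0.00134) and Magohb (3.19, adjusted p = 0.0243), which pair in that complex, were called higher, and Casc3 (-4.15, adjusted p = 0.00874) and Gspt2 (-6.54, adjusted p = 0.0093) lower.

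Rbm8a had 148 and 167 TPM in axonal shPum2 and 131 and 142 TPM in axonal shControl libraries, against 107 to 119 TPM in somatic libraries. Magohb overlapped between the compartments, at 5.48 to 47.3 TPM in axonal and 16.6 to 23.7 TPM in somatic libraries. A further list held 9 genes of deadenylases and their relatives and of poly(A)-binding proteins and their partners. In it Angel2 (3.65, adjusted p = 0.00132) and Paip2 (1.82, adjusted p = 0.0067) were called higher by edgeR. Another 3 were called lower by edgeR, among them Noct (-6.51, adjusted p = 0.0121) and Toe1 (-4.65, adjusted p = 0.0164). Angel2 had 15.5 to 33.9 TPM in axonal libraries and at most 12.9 TPM in somatic libraries. Every axonal library was below every somatic one for Paip2, at 31.1 to 80.4 TPM in axonal and 106 to 114 TPM in somatic libraries. Of 9 decapping partners Eif4enif1, which carries the cap-binding protein into processing bodies, was the only one called, lower at -4.93 (adjusted p = 0.00468, edgeR). Of 11 further RNA-binding proteins of decay, Cpeb1 (-4.32, adjusted p = 0.0131) and Rc3h2 (-4.75, adjusted p = 0.0136) were called, both lower. Of 5 genes of microRNA maturation, Dgcr8 (-2.93, adjusted p = 0.0135) and Xpo5 (-2.70, adjusted p = 0.0209) were called, again lower. None of the 57 partners tested in somatic RNA and none of the 46 tested in axonal RNA was called between hairpins by edgeR. The nearest in axons were the exosome nuclease Dis3 at -7.77 (unadjusted p = 0.032, edgeR) and Dis3l2, an exosome-independent nuclease, at 6.28 (unadjusted p = 0.0404, edgeR).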

How the data were processed

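RNA was sequenced from 8 libraries, 2 in each of 4 groups. The authors' deposited library files give kallisto estimated counts per RefSeq transcript, TPM and transcript length, per the file headers. Kallisto, DESeq2 and build Rnor_6.0 come from the submitters' processing notes, and tool versions are not given in the sources used here. The authors' deposited comparison tables give, per gene, a mean signal, the log2 fold change with its test statistic (a score), and p-values, per the file headers. Of 18321 transcripts, 17367 (94.8%) received a gene symbol from a RefSeq table (GRCr8, names alone). Counts were summed per gene, rounded and tested with edgeR 4.0.16 in R 4.3.3 (quasi-likelihood test, TMM, expression filter, Benjamini-Hochberg adjustment, threshold 0.05). SE is the log2 fold change divided by the root of the F statistic. DESeq2 1.42.0, limma 3.58.1, other scalings, no filter, a replicate block and each library left out were alternatives; limma on log2(TPM + 0.5) and voom with a spread per compartment were added after seeing the data. Motifs were searched on both strands. A self-test on simulated counts recovered changed genes, at a spread close to that of the somatic fit. The spread was wider in the axonal fit and in the fits of all 8 libraries (biological coefficient of variation 125% and 91.1%). Recovery at those spreads was not tested. The rule for named genes took Pum2, the 10 members with the smallest p per hairpin comparison and the 10 largest called rises and falls between compartments; their values are given per library or as ranges. Some genes are not reported here. Members and lists were chosen with earlier results of these data known. Unmatched transcripts held 2.02% to 3.62% of a library's counts, and kallisto apportions reads common to near-identical transcripts, which makes paralogues less certain.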

Additional observations from a re-analysis of the deposited data

How the results depend on the processing

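In somatic RNA the count of genes called between hairpins was 1; it was 2 with DESeq2, 0 with voom, 0 in a fit of all 8 libraries, and 0 to 1 with a library left out, and no member was called under any of these. In axonal RNA it was 0; it was 6 without the expression filter, 157 with DESeq2 (2 members) and 0 to 31 with a library left out (31 without shPum2 replicate 1, 22 without shControl replicate 1, no member in either). For the difference between compartments it was 0; it was 606 with DESeq2 (7 members) and 0 to 713 with a library left out (0 to 4 members; 713 without axonal shControl replicate 1). Between compartments 4964 genes and 23 members (12 higher, 11 lower) were called; with a library left out these were 3126 to 6752 genes and 9 to 28 members (6 to 15 higher, 3 to 14 lower), and leaving out any somatic library left 9. The shPum2 libraries alone gave 3046 genes and 10 members (5 higher, 5 lower), limma on TPM gave 9848 genes and 35 members (4 higher, 31 lower), and total counts gave 6 members higher. On TPM the signs of Ago1 (-0.039), Lsm1 (-0.58), Upf3b (-0.81), Tob2 (-0.72), Exosc5 (-0.48) and Lsm2 (-0.82) were reversed. Mtrex was 1.48 in shControl libraries alone, and Exosc9, Exosc7 and Smg9 were 0.33, 0.81 and 0.39 in shPum2 libraries alone. Between hairpins, somatic Tob1 ranged from -0.034 (without shPum2 replicate 1) to 0.53 and axonal Pum2 from -0.75 (without shPum2 replicate 2) to 3.42 when a library was left out. The cause was not tested. The replicate number as a block is a number only, since 2 pairs cannot establish a pairing (same-number deviations correlated at r = 0.67 in somatic and 0.13 in axonal libraries); with the replicate block 1 gene was called in somatic RNA, 0 in axonal RNA, 0 for the difference and 4475 genes with 19 members between compartments. Leaving out a library left 1 in its group, which was assumed to vary like the other groups. Of the 47 members, 10 to 19 were under 1 TPM in each axonal library, against 0 in somatic libraries.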
